A study of Mus musculus with 6 samples.

Results

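Lipid-associated macrophage genes are a set of 10 genes that macrophages switch on when they take up and handle large amounts of lipid. They are Apoe, Abca1, Abcg1, Lpl, Trem2, Plin2, Fabp4, Fabp5, Gpnmb and Spp1. They were taken by symbol from a deposited table of 23107 genes, in which all 10 were found, and 9 of them had enough counts to be tested. The data are 6 RNA-seq libraries of CD11b+ Gr-1+ myeloid cells sorted from gliomas of C57BL/6 mice. In 3 libraries the tumours carried wild-type IDH1 (wtIDH1) and in 3 they carried mutant IDH1 (mIDH1), the isocitrate dehydrogenase form that makes 2-hydroxyglutarate. The labels give no agent, time point or age, no further allele of the tumours, and no number of mice per library. The question was how the level of these genes in the infiltrating myeloid cells differed between the tumour genotypes.

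Macrophages that clear myelin, dying cells or lipoproteins can become loaded with cholesterol and fatty acids. They sense lipid at the surface through TREM2, store it in droplets, and pass cholesterol out through ABC transporters to apolipoprotein E, under the control of the liver X receptors (LXR). In brain tumours and in damaged brain, macrophages and microglia with this program also express GPNMB and osteopontin, the product of Spp1.

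Of the 9 genes tested, Gpnmb rose in mIDH1 and none fell. Gpnmb went from 518 ± 185 to 1161 ± 247 CPM (counts divided by the TMM-scaled library size; SD, n = 3 each), a 2.24-fold difference. Spp1, Apoe, Abca1, Fabp5 and Lpl had fitted values between 1.495 and 2.90 times those of wtIDH1, but did not pass. The spread among the mIDH1 libraries was wide for these genes, and different libraries carried the high values. Trem2, Abcg1 and Plin2 had log2 fold changes between 0.07 and 0.30 and did not pass either. Fabp4 was at or near 0 in all libraries.

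A gene was called when its p from edgeR's quasi-likelihood test, after Benjamini-Hochberg adjustment across the 12950 genes tested, was under 0.05. By this rule 1 of the 9 tested genes was called, as higher, against 8.17% of all genes (2.78% higher and 5.39% lower). At an unadjusted p under 0.05 there were 6 of the 9, all higher, and none was called lower by DESeq2 or limma voom either. The share of all genes tested at an unadjusted p under 0.05 was not counted, so this number and those of the lists below have no background beside them. All 9 log2 fold changes were positive, with a median of 0.68, where 53.4% of all genes tested were positive and their median was 0.06. The groups did not overlap, with mIDH1 higher, for 2 of the 9 (Gpnmb and Abca1), against 14.0% of all genes tested (28.9% with either group higher). These counts rest on few genes, chosen with earlier results known, and nothing particular to the set is read from them.

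**Figure D1:**
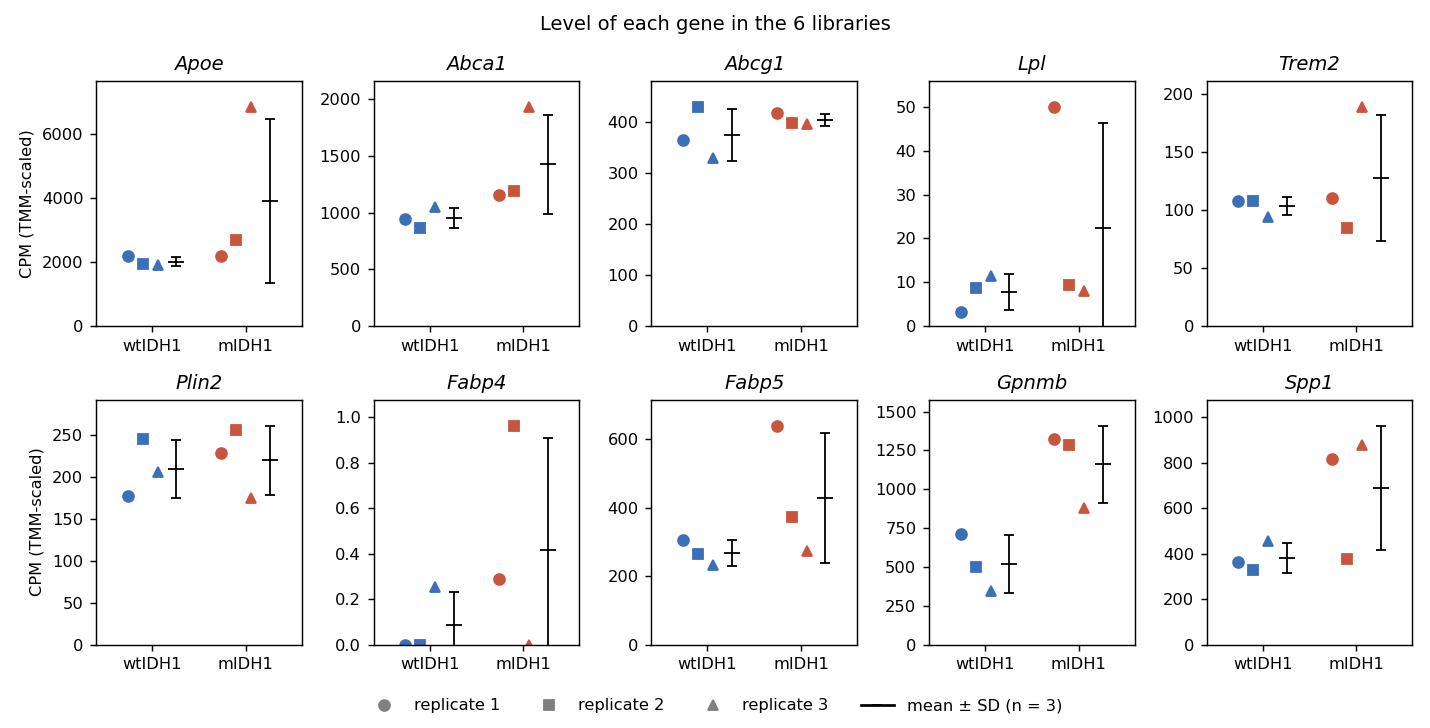
Level of each of the 10 genes in CPM (linear axis from 0, a scale of its own in each panel) for the 3 wtIDH1 (blue) and 3 mIDH1 (red) libraries. Marker shape gives the replicate number, and the black bar gives the mean ± SD (n = 3), with bars that would go below 0 ending at the axis. All 3 mIDH1 libraries lie above all 3 wtIDH1 libraries for Gpnmb and Abca1, and a single mIDH1 library stands high for Apoe (6830 CPM) and Lpl (49.98 CPM).

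The 6 libraries held between 19728205 and 35093265 counts, and the limit that a count of 0 allows, 3 counts, came to between 0.0861 and 0.151 CPM. Such floors cover counting error only. No source says whether replicates came from separate mice, so the p-values cover only library-to-library spread, part of which may be technical. Itgam, the gene of CD11b, lay between 1778 and 2222 CPM in all libraries. Ly6c2, a Gr-1 antigen gene, was at 120, 214 and 121 CPM in wtIDH1 and at 46.9, 54.3 and 33.7 CPM in mIDH1, so the groups did not overlap (edgeR log2 fold change -1.76, adjusted p = 0.00184, and at most 0.0143 in the other settings). Of the neutrophil markers S100a8 lay between 2.54 and 11.3 CPM and Csf3r between 110.0 and 272 CPM, and of the macrophage markers Emr1 lay between 168 and 340 CPM and Csf1r between 1417 and 1966 CPM. The part of the Ly6c2 difference in the results for the 10 genes was not tested. In bulk RNA, fewer cells of a type and less RNA per cell cannot be told apart.

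The start regions of 3 genes are shown because the data bear on them: those of Gpnmb, Spp1 and Abca1. Gpnmb was the called gene. Spp1 and Abca1 did not pass, but their levels were also higher in some or all mIDH1 libraries. RefSeq (GRCm38.p6) gave entries for 6 of the 10 genes, with windows of 250 bases before to 50 after the start site, of which the bases before it are printed 5′ to 3′ along the gene. Capitals mark matches to letters searched on both strands. The windows of Apoe, also higher in some mIDH1 libraries, and a further Spp1 window from chr5:104435942 held no match and are not printed.
Gpnmb, chr6:49036268-49036517, plus strand: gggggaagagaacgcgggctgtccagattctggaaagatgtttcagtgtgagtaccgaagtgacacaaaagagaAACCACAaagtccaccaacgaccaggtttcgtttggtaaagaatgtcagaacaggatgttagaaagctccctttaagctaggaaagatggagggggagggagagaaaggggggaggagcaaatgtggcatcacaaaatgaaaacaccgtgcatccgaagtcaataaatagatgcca
Spp1, chr5:104434861-104435110, plus strand: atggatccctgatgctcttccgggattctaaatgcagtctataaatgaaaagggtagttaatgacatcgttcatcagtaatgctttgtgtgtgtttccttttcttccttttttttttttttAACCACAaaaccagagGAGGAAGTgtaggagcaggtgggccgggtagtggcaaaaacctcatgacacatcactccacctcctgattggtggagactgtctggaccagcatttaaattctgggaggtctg
Abca1, chr4:53159896-53160145, minus strand: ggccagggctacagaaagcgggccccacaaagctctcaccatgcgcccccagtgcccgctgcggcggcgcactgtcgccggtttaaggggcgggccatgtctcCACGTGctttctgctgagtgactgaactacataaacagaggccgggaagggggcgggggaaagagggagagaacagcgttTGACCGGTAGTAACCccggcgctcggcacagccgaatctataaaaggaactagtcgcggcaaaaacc

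The letters AACCACA, a site type of RUNX factors, begin 176 bases before the start site of Gpnmb. They begin 129 bases before the Spp1 start site whose window is printed, and 5.27% of all 32851 promoter windows hold them. GAGGAAGT, a site type of the myeloid factor PU.1, begins 113 bases before the same start of Spp1 and is in 3.20% of windows. In Abca1 the E-box letters CACGTG begin 147 bases before the start (7.15% of windows). The longer run of capitals in Abca1 begins 67 bases before the start. It is an element of the type that LXR binds with RXR, and its pattern, searched after the Abca1 window had been seen, is in 0.0122% of windows, so its presence there is no finding. The AP-1 letters TGANTCA begin at base 9 after the start of Gpnmb and 9 bases before the start of Trem2 (7.81% of windows), and CACGTG also begins 4 bases before the start of Plin2. The ideal direct repeats bound by PPAR with RXR and by LXR with RXR were in 0.0396% and 0.0152% of windows, and in none of the windows of the 6 genes. None of the motifs searched overlapped another in these windows. These are descriptions of letters, not of bound factors.

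Apoe encodes apolipoprotein E, the acceptor onto which macrophages and astrocytes load cholesterol (chromosome 7, 19696109 to 19699188, mm10). It was at 2182, 1928 and 1918 CPM in wtIDH1 replicates 1 to 3 and at 2171, 2687 and 6830 CPM in mIDH1. The wtIDH1 libraries were close together, mIDH1 replicate 1 lay among them, and mIDH1 replicate 3 was 2.54 times the next highest library of its group. The log2 fold change was 0.96 ± 0.33 (SE; edgeR adjusted p = 0.102). Without mIDH1 replicate 3 it was 0.27 (adjusted p = 0.364), and without mIDH1 replicate 1 it was 1.25 (adjusted p = 0.0253).

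Apoc1 and Apoc2, which encode further apolipoproteins beside Apoe on the chromosome, were looked at after their values were seen. Apoc1 was at 13.1 CPM in mIDH1 replicate 3 and between 0.910 and 2.84 CPM in the other 5 libraries. Apoc2 was at 147 CPM in the same library and between 52.4 and 70.0 CPM in the others. In both genes, as in Apoe, a single library stood above the rest, and neither passed (adjusted p = 0.274 and 0.296). Apoc4, a further apolipoprotein gene, did not share this. It was at 0.333 CPM in mIDH1 replicate 3 and highest in mIDH1 replicate 2, at 3.13 CPM (edgeR adjusted p = 0.454).

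Abca1 encodes the transporter that hands cholesterol to lipid-poor apolipoproteins (chromosome 4, 53030787 to 53159895). It was at 943, 866 and 1047 CPM in wtIDH1 and at 1159, 1186 and 1928 CPM in mIDH1, so the groups did not overlap. The log2 fold change was 0.58 ± 0.21 (SE; adjusted p = 0.111 by edgeR and 0.0488 by DESeq2), or 0.30 without mIDH1 replicate 3 (edgeR adjusted p = 0.304). Abcg1 encodes the partner that loads mature high-density lipoprotein (chromosome 17, 31057675 to 31117988). It was at 365, 430 and 329 CPM in wtIDH1 and at 418, 399 and 397 CPM in mIDH1, all of the latter inside the wtIDH1 range (log2 fold change 0.11 ± 0.16 SE, edgeR adjusted p = 0.754). Both transporters are classical LXR targets. The fitted ratio of mIDH1 to wtIDH1 was 1.495 for Abca1 and 1.08 for Abcg1, and the difference between these was not tested.

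Lpl encodes lipoprotein lipase, which frees fatty acids from lipoproteins (chromosome 8, 68880491 to 68907448). It was at 3.23, 8.604 and 11.4 CPM in wtIDH1 and at 49.98, 9.43 and 7.98 CPM in mIDH1. Only mIDH1 replicate 1 was high, with 1742 counts, and the other mIDH1 libraries lay within the wtIDH1 range. The log2 fold change of 1.54 ± 0.66 (SE; edgeR adjusted p = 0.191) was 0.16 without that library (adjusted p = 0.920).

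Fabp5 and Fabp4 encode small carriers of fatty acids inside the cell, and are neighbours on chromosome 3 (10012548 to 10016607 and 10204088 to 10208576). Fabp5 was at 306, 265 and 232 CPM in wtIDH1 and at 639, 371 and 274 CPM in mIDH1. The groups overlapped in mIDH1 replicate 3, and the log2 fold change was 0.68 ± 0.26 (SE; edgeR adjusted p = 0.139). Without mIDH1 replicate 3 it was 0.92 (adjusted p = 0.0157), and without mIDH1 replicate 1 it was 0.27 (adjusted p = 0.475). The annotation also holds a processed copy, Fabp5l2, and the sources used here do not say how reads matching both were assigned, so the level is uncertain to that extent.

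Fabp4, the form of adipocytes, capillary endothelium and some macrophages, had 0, 0 and 5 counts in wtIDH1 and 10, 31 and 0 counts in mIDH1. Its highest value was 0.962 CPM, in mIDH1 replicate 2, and it did not pass the filter on low counts. In a fit without that filter it had an edgeR adjusted p of 0.665. The adipocyte markers Adipoq and Lep were at 0 counts in all 6 libraries. Cidec, another of them, was at most 0.855 CPM, in mIDH1 replicate 3. The 5 adipocyte markers summed to between 0 and 0.114 CPM in wtIDH1 and between 0 and 1.92 CPM in mIDH1. The highest sum was in mIDH1 replicate 2, mostly from Plin1 at 1.61 CPM, and its part in the Fabp4 counts was not tested.

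Trem2 encodes a surface receptor for lipids, lipoproteins and apolipoprotein E (chromosome 17, 48346401 to 48354147). It was at 108, 108 and 94.1 CPM in wtIDH1 and at 110, 84.1 and 188 CPM in mIDH1. As for Apoe and Abca1, the highest library was mIDH1 replicate 3, while mIDH1 replicate 2 was the lowest of all 6. The log2 fold change was 0.30 ± 0.25 (SE; edgeR adjusted p = 0.540), and -0.09 without mIDH1 replicate 3 (adjusted p = 0.859).

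Plin2 encodes perilipin 2, the coat protein of lipid droplets in cells other than adipocytes (chromosome 4, 86648386 to 86670060). It was at 177, 245 and 206 CPM in wtIDH1 and at 228, 256 and 175 CPM in mIDH1. The ranges overlapped almost fully, and the log2 fold change of 0.07 ± 0.19 (SE) did not pass (edgeR adjusted p = 0.882). Its sign changed without wtIDH1 replicate 1 (-0.04) or mIDH1 replicate 2 (-0.06).

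Gpnmb encodes a transmembrane glycoprotein of lysosomes and the cell surface (chromosome 6, 49036546 to 49070929). It was at 711, 500 and 343 CPM in wtIDH1 and at 1324, 1283 and 876 CPM in mIDH1. All 3 mIDH1 libraries lay above all 3 wtIDH1 libraries, and the nearest pair was wtIDH1 replicate 1 and mIDH1 replicate 3. The log2 fold change was 1.16 ± 0.25 (SE; edgeR adjusted p = 0.0149). It stayed between 0.94 and 1.46 when any 1 library was left out, with adjusted p = 0.0935 without wtIDH1 replicate 2, 0.0670 without wtIDH1 replicate 3 and 0.0602 without mIDH1 replicate 2.

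Spp1 encodes osteopontin, a secreted ligand of integrins and CD44 (chromosome 5, 104435118 to 104441050). It was at 363, 327 and 454 CPM in wtIDH1 and at 816, 375 and 877 CPM in mIDH1. Replicates 1 and 3 of mIDH1 lay above all wtIDH1 libraries, and mIDH1 replicate 2 lay within their range. The log2 fold change was 0.85 ± 0.27 (SE; edgeR adjusted p = 0.073), and 1.15 without mIDH1 replicate 2 (adjusted p = 0.0118). Spp1 passed by DESeq2 (adjusted p = 0.0148), and by edgeR without the filter (adjusted p = 0.019) or with library totals alone (adjusted p = 0.0496). In the annotation 309 of the 1648 exonic bases of Spp1 are shared with Gm42793, an unclassified transcript on the same strand, whose reads cannot be told apart from those of Spp1.

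**Figure D2:**
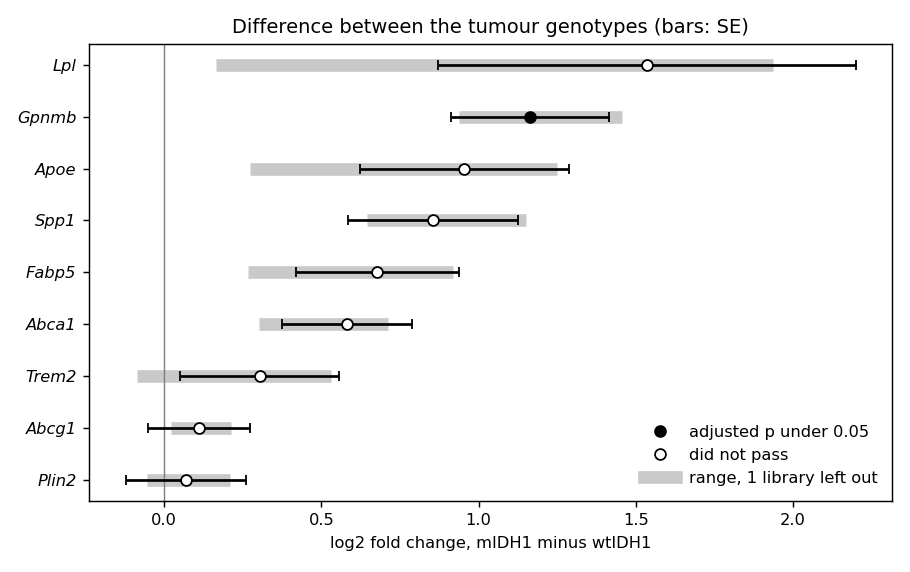
Log2 fold change of the 9 tested genes, mIDH1 minus wtIDH1 (points, with SE as bars), and the range when any 1 library was left out (grey). Gpnmb (1.16) is the filled point, past the threshold, and the grey ranges of Lpl (0.16 to 1.94), Apoe (0.27 to 1.25) and Trem2 (-0.09 to 0.53) are wide.

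The high values of the 9 genes were not in the same mIDH1 libraries. Set against the wtIDH1 mean of each gene on a log2 scale, mIDH1 replicate 3 was at 1.77 for Apoe, 1.203 for Spp1, 1.02 for Abca1 and 0.87 for Trem2, and at 0.04 for Lpl and Fabp5. In mIDH1 replicate 1 the order was another: Lpl stood at 2.69, Gpnmb at 1.35, Fabp5 at 1.26 and Spp1 at 1.098, with Apoe and Trem2 at 0.11 and 0.09. Replicate 2 was high for Gpnmb (1.31) and near the wtIDH1 mean for Spp1 (-0.02) and Lpl (0.28). Of the 9 tested genes, 4 had their highest mIDH1 value in replicate 1, 1 in replicate 2 and 4 in replicate 3. Gpnmb was above its wtIDH1 mean by at least 0.76 in each mIDH1 library.

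**Figure D3:**
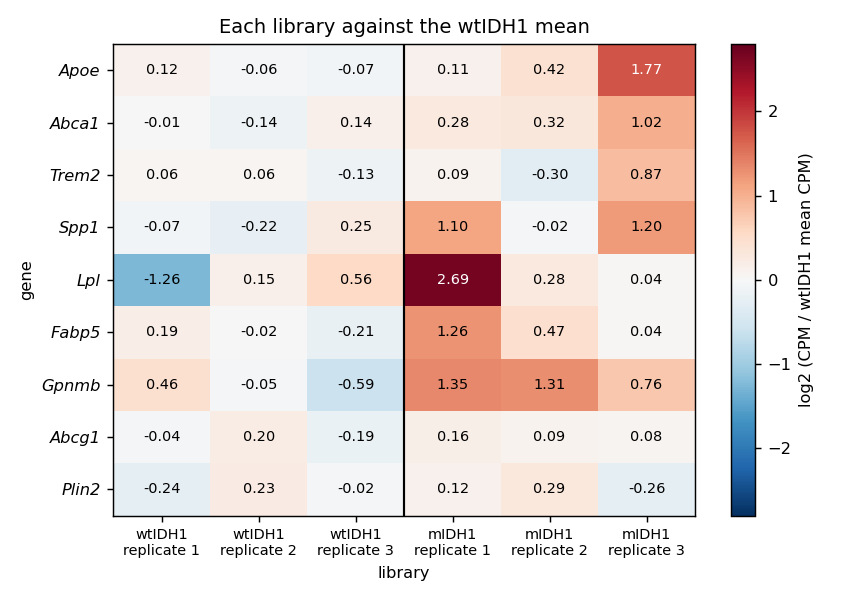
Log2 ratio of the CPM of each library (columns) to the mean wtIDH1 CPM of the same gene (rows), for the 9 tested genes, with the value printed in each cell and the colour running from blue (below) to red (above). Apoe, Abca1, Trem2 and Spp1 have their highest values in mIDH1 replicate 3, and Lpl, Fabp5 and Gpnmb have theirs in mIDH1 replicate 1.

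The coefficient of variation was larger among mIDH1 than among wtIDH1 libraries for Apoe (65.5% and 7.45%), Lpl (106% and 53.7%), Fabp5 (44.1% and 13.9%), Trem2 (42.5% and 7.70%), Spp1 (39.7% and 17.2%), Abca1 (30.6% and 9.54%) and, by little, Plin2 (18.7% and 16.5%). For Gpnmb (21.3% and 35.7%) and Abcg1 (2.76% and 13.6%) it was smaller in mIDH1. With 3 libraries a group these values are descriptions.

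Divided by the length of all annotated exons, Apoe had the highest level of the 10 genes in both groups, at 940 ± 70.0 CPM per kb in wtIDH1 and 1822 ± 1195 CPM per kb in mIDH1 (SD, n = 3). Spp1 came next, at 231 ± 39.8 and 418 ± 166 CPM per kb. In wtIDH1 the ranges of neighbours in the order overlapped from Abca1 (91.9 CPM per kb) through Gpnmb (79.5), Fabp5 (75.0) and Plin2 (59.6) to Abcg1 (51.4 CPM per kb). In mIDH1 Gpnmb stood above Abca1 and Fabp5 in the order, at 178 CPM per kb against 137 and 120 CPM per kb, but the ranges of Gpnmb and Abca1 and those of Abca1 and Fabp5 overlapped. Plin2 and Abcg1 followed at 62.5 and 55.5 CPM per kb, with overlapping ranges. Trem2 was lower, at 20.9 CPM per kb in wtIDH1 and 25.8 CPM per kb in mIDH1. Lpl (0.740 and 2.14 CPM per kb) and Fabp4 were lowest in both groups. Lengths of transcripts in these cells can differ from the annotated total, so the order is approximate.

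Genes around this program moved in both directions. Of 7 lists with 122 genes beside the 10, 4 are of lipid handling and the others hold TREM2 signalling, receptors of osteopontin and GPNMB, and the wider macrophage signature. In all, 110 genes were tested, and 11 rose and 9 fell in mIDH1, together 18.2% of them, against 8.17% of all genes tested. These lists too were chosen with earlier results of these data known, so no enrichment is read from that share. The median log2 fold change was 0.16, against 0.06 for all genes. Of the 20 called genes, Sdc4, Nceh1, Arl4c, Abca7 and Card9 stayed past the threshold in all 12 other settings tried. The number that rose was 3 without wtIDH1 replicate 2 or 3, and 5 without wtIDH1 replicate 1 or mIDH1 replicate 2, and the number that fell was 3 without wtIDH1 replicate 2 or 3.

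In the list of the LXR axis and cholesterol efflux 3 of 22 tested genes rose and 3 fell, with a median of 0.43. Nceh1, which frees cholesterol from stored esters, rose from 67.6 ± 10.3 to 156 ± 27.5 CPM (edgeR log2 fold change 1.203 ± 0.20 SE, adjusted p = 0.00332). Soat1, which makes those esters, rose from 412 ± 19.1 to 598 ± 14.5 CPM (0.54, adjusted p = 0.0466), and Pltp, the phospholipid transfer protein gene, from 49.1 ± 12.2 to 96.0 ± 3.08 CPM (0.97, adjusted p = 0.0142). Soat1 and Pltp were named after their values were seen. Arl4c, an LXR-induced small GTPase gene, fell from 569 ± 25.6 to 290.2 ± 2.86 CPM (-0.97, adjusted p = 0.00276).

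Abca7, a relative of Abca1, fell from 173 ± 7.42 to 90.0 ± 12.7 CPM (log2 fold change -0.94, edgeR adjusted p = 0.0058). Cyp27a1, which makes 27-hydroxycholesterol, a ligand of LXR, fell from 42.2 ± 3.87 to 19.4 ± 1.65 CPM (-1.12, adjusted p = 0.0141). The LXR genes themselves did not pass: Nr1h2 was at 137 ± 10.5 and 93.4 ± 23.7 CPM (-0.56, adjusted p = 0.109) and Nr1h3 at 34.7 ± 6.82 and 43.6 ± 22.2 CPM (0.33, adjusted p = 0.614) (wtIDH1 given first). Without mIDH1 replicate 1, Nr1h2 passed as lower (adjusted p = 0.0229) and Nr1h3 was at -0.17.

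In the same list only 1 gene rose when wtIDH1 replicate 1, wtIDH1 replicate 3 or mIDH1 replicate 2 was left out, and 5 rose by DESeq2 or with library totals alone. Cyp27a1 had an edgeR adjusted p of 0.0822 without wtIDH1 replicate 2 and 0.0506 without wtIDH1 replicate 3. Pltp did not pass when wtIDH1 replicate 1 (0.0611), its replicate 3 (0.0833) or mIDH1 replicate 2 (0.0504) was left out. Soat1 passed only in the fit without mIDH1 replicate 3 (0.0433) among those that left out a library, and its largest adjusted p was 0.177.

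Of 7 tested PPAR and MiT transcription factor genes 2 fell and none rose. Ppard, a fatty acid sensor of macrophages, fell from 93.0 ± 9.99 to 49.6 ± 7.60 CPM (log2 fold change -0.91, edgeR adjusted p = 0.0142), and Tfeb, a driver of lysosomal genes, from 53.3 ± 20.1 to 26.8 ± 3.21 CPM (-0.99, adjusted p = 0.0462). Tfec and Tfe3, of the same MiT family, had log2 fold changes of 0.45 and -0.42 and did not pass (adjusted p = 0.455 and 0.203). Pparg was between 0.618 and 8.75 CPM in all libraries, highest in mIDH1 replicate 2 (1.01, adjusted p = 0.628, and -0.56 without that library). Without wtIDH1 replicate 2 or 3 neither Ppard (0.0908 and 0.0629) nor Tfeb (0.255 and 0.0568) passed. Tfeb also missed without wtIDH1 replicate 1 (0.065) and mIDH1 replicates 1 (0.102) and 2 (0.121), with library totals alone (0.0613) and with a replicate block (0.094).

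Among 15 tested genes of lipid uptake 2 rose and 2 fell. The scavenger receptor gene Msr1 rose from 445 ± 72.6 to 716 ± 148 CPM (edgeR log2 fold change 0.69 ± 0.20 SE, adjusted p = 0.0492). Olr1, a receptor for oxidised lipoprotein, fell from 34.8 ± 12.8 to 10.1 ± 6.05 CPM (-1.79, adjusted p = 0.0223), and Cd300lf, a receptor for lipids on dying cells, from 511 ± 38.2 to 294 ± 33.3 CPM (-0.80, adjusted p = 0.0112). Vldlr, a receptor that binds apolipoprotein E, lay around the floor in wtIDH1, at 0, 0.0758 and 0.202 CPM, and reached 3.39, 6.82 and 4.18 CPM in mIDH1 (adjusted p = 0.0184). Cd36 did not pass, at 22.4 ± 12.7 and 31.1 ± 15.98 CPM (0.48, adjusted p = 0.590). Gpihbp1, the endothelial anchor of lipoprotein lipase, had 0 counts in all 6 libraries.

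Of these, Msr1 lost its call when any library other than mIDH1 replicate 2 was left out (edgeR adjusted p up to 0.221). It also lost it with RLE factors (0.0514) and with a replicate block. Vldlr lost it without wtIDH1 replicate 2 (0.0889) or mIDH1 replicate 2 (0.0901) and with limma voom (0.0733). Olr1 lost it without wtIDH1 replicates 2 (0.142) or 3 (0.0704) or mIDH1 replicate 2 (0.0856), and Cd300lf without wtIDH1 replicates 2 (0.0733) or 3 (0.0506). Without wtIDH1 replicate 2 no gene of the list passed. When any other single library was left out, 1 gene rose. None fell once wtIDH1 replicate 3 was left out, and 1 fell once mIDH1 replicate 2 was.

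Of 17 tested genes of lipid droplets and triglyceride turnover none passed by edgeR, DESeq2 or limma voom (4 had an unadjusted edgeR p under 0.05, and the median was 0.11). The 4 with the smallest p were Acsl1 and Acsl4, which activate fatty acids (log2 fold changes 0.55 and 0.51), Pnpla2, the lipase of droplets (0.51), and Dgat2, which makes triglyceride (-0.71), with adjusted p = 0.100, 0.134, 0.160 and 0.203. Acsl1 was at 50.5 ± 6.54 and 73.9 ± 1.88 CPM, with groups that did not overlap.

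Genes of TREM2 signalling and of the receptors for osteopontin and GPNMB were measured too. Of 11 tested TREM2 signalling genes 1 fell, Card9, an adaptor below the kinase Syk, from 68.4 ± 12.1 to 28.0 ± 2.78 CPM (log2 fold change -1.29 ± 0.22 SE, edgeR adjusted p = 0.0044). Tyrobp, the DAP12 adaptor through which TREM2 signals, was at 234 ± 49.0 and 214 ± 20.1 CPM (-0.13, adjusted p = 0.735, and 0.04 without wtIDH1 replicate 2). Syk, the kinase itself (-0.71, adjusted p = 0.0575), Ms4a6d (0.61, adjusted p = 0.051) and Plcg2 (-0.47, adjusted p = 0.114) did not pass. With DESeq2, limma voom or no filter Ms4a6d passed as higher and Syk as lower, and without mIDH1 replicate 1 Syk passed (adjusted p = 0.0438).

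Of 10 tested receptor genes 2 rose and 1 fell. Sdc4, the syndecan that binds GPNMB, was at 215, 252 and 306 CPM in wtIDH1 and at 866, 834 and 1048 CPM in mIDH1. The groups lay far apart, and the log2 fold change was 1.83 ± 0.19 (SE; edgeR adjusted p = 0.000172, and at most 0.00491 in the other settings). Itga8, an integrin chain, went from 0.33 ± 0.12 to 5.05 ± 3.22 CPM (3.92, adjusted p = 0.0369). Its call was lost in all fits that left out a library but that without mIDH1 replicate 3 (adjusted p up to 0.142). The call was also lost with limma voom (0.166) and with a replicate block.

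Itga5, which pairs with Itgb1, fell from 517 ± 125 to 287 ± 60.8 CPM (log2 fold change -0.85, edgeR adjusted p = 0.0309). Its adjusted p was 0.155 without wtIDH1 replicate 2, 0.131 without wtIDH1 replicate 3, 0.107 without mIDH1 replicate 2 and 0.0514 without mIDH1 replicate 3. With a replicate block Itga5 did not pass either. Cd44, the hyaluronan and osteopontin receptor, was at 1190 ± 293 and 876 ± 262 CPM and did not pass (-0.44, adjusted p = 0.314), nor did Itgav (0.38, adjusted p = 0.192), an integrin chain that binds osteopontin.

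In a wider list of genes that accompany this macrophage program 4 of 28 tested genes rose and none fell, with a median of 0.32 and 22 positive values. Of all genes tested 2.78% rose and 5.39% fell. The groups did not overlap for 9 of the 28 with mIDH1 higher and for 2, Axl and Ctsz, with mIDH1 lower. Of all genes tested these shares were 14.0% and 14.9%. Axl and Ctsz had log2 fold changes of -0.49 and -0.24 and did not pass (edgeR adjusted p = 0.145 and 0.431). The lysosomal genes Cd68 (181 ± 15.8 to 289 ± 11.9 CPM, log2 fold change 0.67) and Cd63 (129 ± 29.9 to 253 ± 100.4 CPM, 0.97) rose (edgeR adjusted p = 0.0223 and 0.0422). The cathepsin gene Ctsb (2631 ± 344 to 4084 ± 595 CPM, 0.63) and Cadm1, an adhesion gene (10.1 ± 6.62 to 37.4 ± 16.1 CPM, 1.88), rose as well (adjusted p = 0.0426 and 0.0282). Without wtIDH1 replicate 2 or 3 none of the list rose, with adjusted p up to 0.121 for Cd68, 0.180 for Cd63, 0.194 for Ctsb and 0.145 for Cadm1. Cd68 also missed without wtIDH1 replicate 1 (0.0703) or mIDH1 replicate 2 (0.0604), and Cd63 without mIDH1 replicate 2 (0.0859) or 3 (0.0987). With a replicate block only 1 gene of the list rose, and Cd68 missed (0.0692). Ctsb missed without wtIDH1 replicate 1 (0.0566) or mIDH1 replicate 1 (0.0976) or 3 (0.0578), and Cadm1 without mIDH1 replicate 1 (0.0823). Without mIDH1 replicate 1, and likewise without replicate 3, 1 gene of the list fell.

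**Figure D4:**
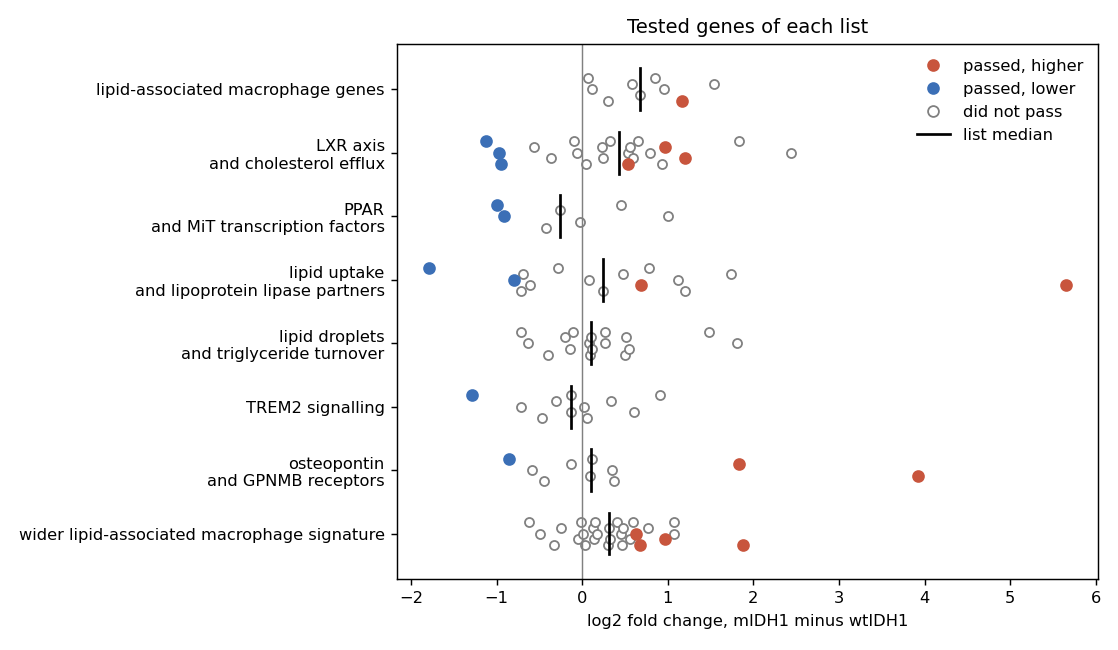
Log2 fold change, mIDH1 minus wtIDH1, of every tested gene of the 10 and of the 7 lists (1 row of points per list, spread vertically for legibility). Red and blue points passed edgeR's test as higher and lower, open points did not, and the black line is the list median. The farthest red point is Vldlr, whose wtIDH1 level was around the floor, and red and blue points stand side by side in the LXR list (3 each).

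Markers of other cell types differed between the groups as well. Of 8 macrophage markers 4 rose (Cd68, Mrc1, Mertk and C1qb) and none fell. Their summed level was between 4094 and 4757 CPM in wtIDH1 and at 5619, 5525 and 8905 CPM in mIDH1, highest in replicate 3, where Apoe, Abca1, Trem2 and Spp1 were also highest. Emr1 (the table's name for Adgre1), Csf1r and Cd68, the first of the list, had log2 fold changes of 0.30, -0.29 and 0.67 (edgeR adjusted p = 0.482, 0.311 and 0.0223). The groups did not overlap for 6 of the 8 with mIDH1 higher and for 1, Csf1r, with mIDH1 lower. Of all genes tested these shares were 14.0% and 14.9%, and the list was chosen with earlier results known. Cd68 is also in the wider list above. Mrc1 passed whichever library was left out (adjusted p at most 0.0023). The number that rose was 1 with a replicate block or without wtIDH1 replicate 2 or 3. It was 2 without wtIDH1 replicate 1 or mIDH1 replicate 3, and 6 without mIDH1 replicate 1.

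Of 7 monocyte markers 2 fell (Ly6c2 and Plac8) and 1 rose (F13a1), and the list median was -0.44, with 5 at an unadjusted p under 0.05. Ly6c2, Ccr2 and Plac8 were lower in mIDH1 without overlap of the groups, and F13a1 was higher without overlap. Of all genes tested 14.9% were lower and 14.0% higher in this way. The sums went the other way, at 1493 to 2617 CPM in wtIDH1 and 2980 to 4511 CPM in mIDH1, as did the 2 genes that make up most of them in mIDH1: F13a1 at 357 ± 56.9 and 1230 ± 640 CPM, and Chi3l3 at 652 ± 317 and 1490 ± 894 CPM (edgeR adjusted p = 0.104). Ccr2 and Plac8 were lowest in mIDH1 replicate 3, at 61.0 and 25.2 CPM, against at least 247 and 111 CPM in the other mIDH1 libraries. Plac8 did not pass without wtIDH1 replicate 2 (edgeR adjusted p = 0.0881) or 3 (0.0653), and 3 genes of the list rose without mIDH1 replicate 3. Of 7 microglia markers none passed edgeR's test (2 at an unadjusted p under 0.05), while by DESeq2 1 rose and 1 fell. Their sums were 925 to 1497 CPM in wtIDH1 and 743, 1059 and 1598 CPM in mIDH1. P2ry12, Tmem119 and Sall1, the first of that list, had log2 fold changes of 0.86, 0.33 and -0.44 (edgeR adjusted p = 0.0522, 0.594 and 0.554). The median of the 7 was -0.44, and 3 were positive. In mIDH1 P2ry12 was higher and Sparc lower (-1.03, edgeR adjusted p = 0.0757), each without overlap of the groups. The part of these cells in the result for any of the 10 genes was not tested.

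Of 13 neutrophil markers 10 were tested, 3 rose and 1 fell, 9 had an unadjusted p under 0.05 and 9 were positive, with a median log2 fold change of 1.48. Lcn2 rose from 5.99 ± 2.34 to 34.97 ± 10.9 CPM (2.54, edgeR adjusted p = 0.00253), Mmp8 from 30.1 ± 7.35 to 109 ± 46.8 CPM (1.85, adjusted p = 0.00286) and Cxcr2 from 22.7 ± 3.26 to 50.2 ± 8.08 CPM (1.15, adjusted p = 0.0132). Csf3r, the G-CSF receptor gene, fell from 260 ± 12.5 to 148 ± 33.8 CPM (-0.82, adjusted p = 0.0214). S100a8, S100a9 and Retnlg, the first of the list, did not pass (adjusted p = 0.191, 0.175 and 0.173). The sums, in which Csf3r has the largest share in wtIDH1, were 337 to 417 CPM in wtIDH1 and 448 to 510 CPM in mIDH1. Csf3r missed without wtIDH1 replicate 1 (0.0511), 2 (0.0881) or 3 (0.0946), and with a replicate block (0.0514). Cxcr2 missed without wtIDH1 replicate 2 (0.0769) or mIDH1 replicate 2 (0.0576). The part of neutrophils in the result for any of the 10 genes was not tested.

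Glioma cells and astrocytes can also express Apoe and Fabp5, and the 12 markers of these cells summed to between 16.98 and 27.3 CPM in wtIDH1 and between 30.7 and 39.4 CPM in mIDH1. Gfap was at most 5.59 CPM, Aqp4 at most 0.647 CPM and Aldh1l1 at most 5.82 CPM, each in wtIDH1 replicate 1, and Olig2 was at most 0.0504 CPM, below the floor.

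Of the 8 glioma and astrocyte markers tested 1 rose, Sox2 (edgeR adjusted p = 0.0368), from 0, 0.0758 and 0.151 CPM in wtIDH1 to 0.545, 7.29 and 4.18 CPM in mIDH1. It did not pass when any library other than mIDH1 replicate 1 was left out (adjusted p from 0.0605 to 0.182), nor with limma voom (0.238) or a replicate block (0.0602). The part of such cells in the levels of Apoe and Fabp5 was not tested.

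Of 7 endothelial markers, from cells that can express Fabp4, 4 were tested and none passed edgeR's test, DESeq2 or limma voom (1 at an unadjusted p under 0.05 by edgeR). Their sums were 103 to 141 CPM in wtIDH1 and 66.2 to 108 CPM in mIDH1, and Pecam1, Cdh5 and Kdr had edgeR adjusted p = 0.403, 0.741 and 0.170. Of 6 T and NK cell markers 5 were tested and none passed by any of the 3 tools (2 at an unadjusted p under 0.05 by edgeR), with sums of 85.3 to 236 CPM in wtIDH1 and 136 to 322 CPM in mIDH1. Cd3e, Cd3d and Cd8a had edgeR adjusted p = 0.181, 0.195 and 0.369. In that list 1 gene passed as lower without mIDH1 replicate 1 and 1 as higher without mIDH1 replicate 3.

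**Figure D5:**
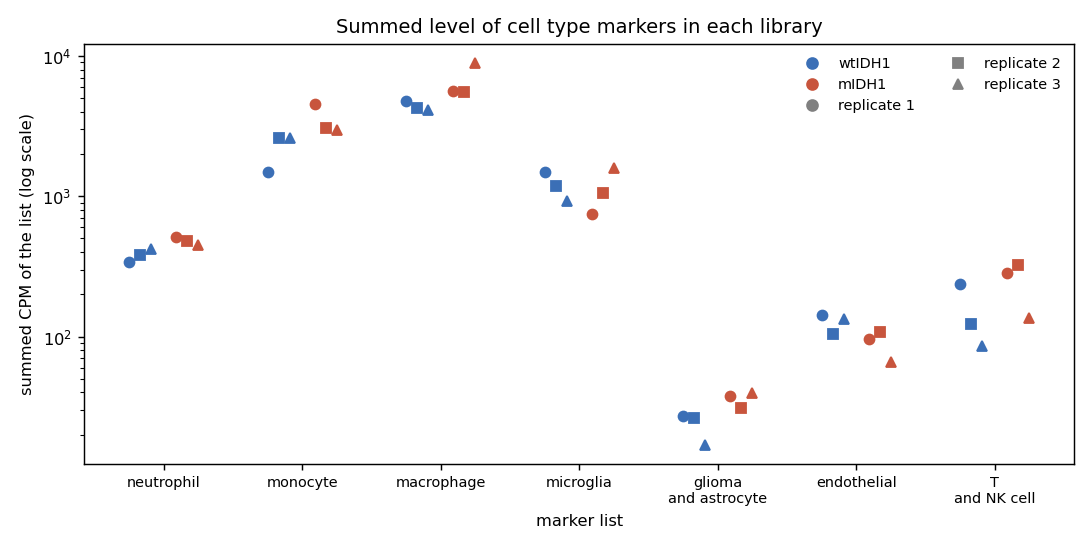
Summed CPM (log axis) of 7 marker lists in each library, with wtIDH1 in blue, mIDH1 in red and marker shape giving the replicate. The macrophage sum is highest in mIDH1 replicate 3 (8905 CPM), and the glioma and astrocyte sum lies between 16.98 and 39.4 CPM in all 6 libraries. The adipocyte list, at or near 0, is not drawn.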

How the data were processed

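RNA of sorted cells was made into poly(A) libraries, per the labels' protocols. The submitters' processing notes name HTSeq, Bowtie2 2.2.1, TopHat2 2.0.13, Cuffdiff 2.1.1, Cufflinks, FastQC and build mm10, without roles. The authors deposited estimated counts per gene, of which 1.31% to 1.61% per library were not whole. They were rounded here. For multi-mapping rules, strandedness and the annotation: not given in the sources used here.

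Genes were filtered by expression (minimum count 10), scaled by TMM and tested by edgeR 4.0.16's quasi-likelihood test with the tumour genotype as the only term (R 4.3.3). SE is the log2 fold change divided by the root of the F statistic. The code was tested on simulated counts. Alternatives were RLE factors, library totals alone, no filter, DESeq2 1.42.0, limma voom 3.58.1, a replicate block and leaving out each library.

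The 10 genes and all lists were chosen with earlier results of these data known. Genes named are the 10; Nr1h2, Nr1h3, Pparg, Tyrobp, Cd36 and Cd44; up to 4 of smallest p in each of the 7 lists; and the first 3 of each of the 8 marker lists. Others (Itgam, Soat1, Pltp, Apoc1, Apoc2, Apoc4, Gpihbp1, Axl, Ctsz, Mrc1, Mertk, C1qb, F13a1, Chi3l3, Sparc, Lcn2, Mmp8, Cxcr2, Csf3r, Olig2, Sox2, Nes, Lep) were named after their values were seen. Of 191 listed genes 3 were found under older symbols and 2 were not matched. Coordinates are from GENCODE on the same build.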

Additional observations from a re-analysis of the deposited data

How the results depend on the processing

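The count of all genes past the threshold, 1058 as reported, was 1610 by DESeq2, 585 with a replicate block and from 334 to 1033 when any 1 library was left out. Of these genes 360 were higher and 698 lower in mIDH1, against 483 higher and 593 lower (44.9% higher) with library totals alone, a scaling that moved the median log2 fold change of all genes to 0.13. Of the 9 tested genes of the set the number that rose was 2 with library totals alone, 3 with no filter, 3 by DESeq2 and from 0 to 2 when a library was left out, and none fell in any setting tried. Among the pathway genes 5 rose with the replicate block, and from 3 to 10 rose and from 3 to 11 fell when a library was left out. Log2 fold changes that changed sign when a library was left out ranged from -0.087 (without mIDH1 replicate 3) to 0.53 for Trem2, from -0.055 (without mIDH1 replicate 2; -0.044 without wtIDH1 replicate 1) to 0.21 for Plin2, from -0.17 (without mIDH1 replicate 1) to 0.57 for Nr1h3, from -0.56 (without mIDH1 replicate 2) to 1.51 for Pparg, and from -0.24 to 0.043 (without wtIDH1 replicate 2) for Tyrobp. The cause was not tested. With the block the number of calls fell to 585, and Gpnmb had an edgeR adjusted p of 0.0105. Deviations of same-numbered libraries correlated at -0.03, 0.03 and -0.05, and not every library correlated best with its own number. No pairing by number was seen in these values. Deviations from a mean of 3 libraries cannot decide whether the samples were paired.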
